A study of Mus musculus with 16 samples.

Results

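The genes described here are 9 genes that mark the birth and maturation of primordial germ cells, the embryonic cells that found the sperm and egg lineages: Prdm1, Prdm14, Nanos3, Dnd1, Dppa3, Kit, Dazl, Ddx4 and Sycp3. They were taken by symbol from the 31663 entries of the deposited expression table, and all 9 were found. Of these, 8 passed the filter for testing, at least 1 FPKM (fragments scaled to transcript length and to the mapped total of the library) in at least 2 libraries, as did 13406 entries in all. Dazl did not pass and is described by its values only. Prdm14 passed only through 2 BMP4-treated libraries, so it entered the tests because of the libraries in which it was high. Nanos3 and Ddx4 also reached 1 FPKM only in libraries of iPSC origin, in 3 and 8 of them.

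The values came from 16 mouse Smart-seq2 libraries, 2 for each of 8 groups, each library made from a single colony or from 1 hand-separated part of a structure. Induced pluripotent stem cells (iPSC, marked with GFP) and trophectoderm stem cells (TSC, marked with RFP; the treatment protocol calls them TSCC) were grown either alone or together, and when grown together they formed structures with a green and a red part. All 8 groups shared 5% Matrigel and medium supplemented with 12.5 ng/ml FGF4 plus 500 ng/ml heparin. The groups were iPSC alone, the iPSC part of assembled structures, TSC alone and the TSC part of assembled structures, each without BMP4 or with BMP4 for the final 24 h before collection on day 3. The sources used here do not give the BMP4 dose, the mouse strain or the origin of the iPSC line. Since no label ties paired libraries to separate cultures, the p-values reflect library-to-library spread that may be technical.

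In the mouse embryo, primordial germ cells arise from a few epiblast cells next to the extraembryonic ectoderm, whose BMP4 signal acts through SMAD proteins to switch on the transcriptional regulators Prdm1 and Prdm14, which act with Tfap2c. These factors silence the somatic programme and restore pluripotency genes. Nanos3 and Dnd1, which bind RNA, keep the new germ cells alive, Dppa3 (also called Stella) is a classical marker of them, and the receptor Kit supports their survival and migration. Dazl, Ddx4 and Sycp3 come on later, around colonization of the gonad and the entry into meiosis.

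Across all 8 groups the 9 genes fell into 3 kinds of pattern. Dnd1, Dppa3, Ddx4 and Sycp3 were present in every library of iPSC origin and low in nearly every library of TSC origin. Prdm1, Prdm14 and Nanos3 were low everywhere, with their highest values in the same 2 BMP4-treated libraries of iPSC origin. Kit and Dazl were low in both lineages and showed neither pattern over the 16 libraries.

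**Figure D1:**
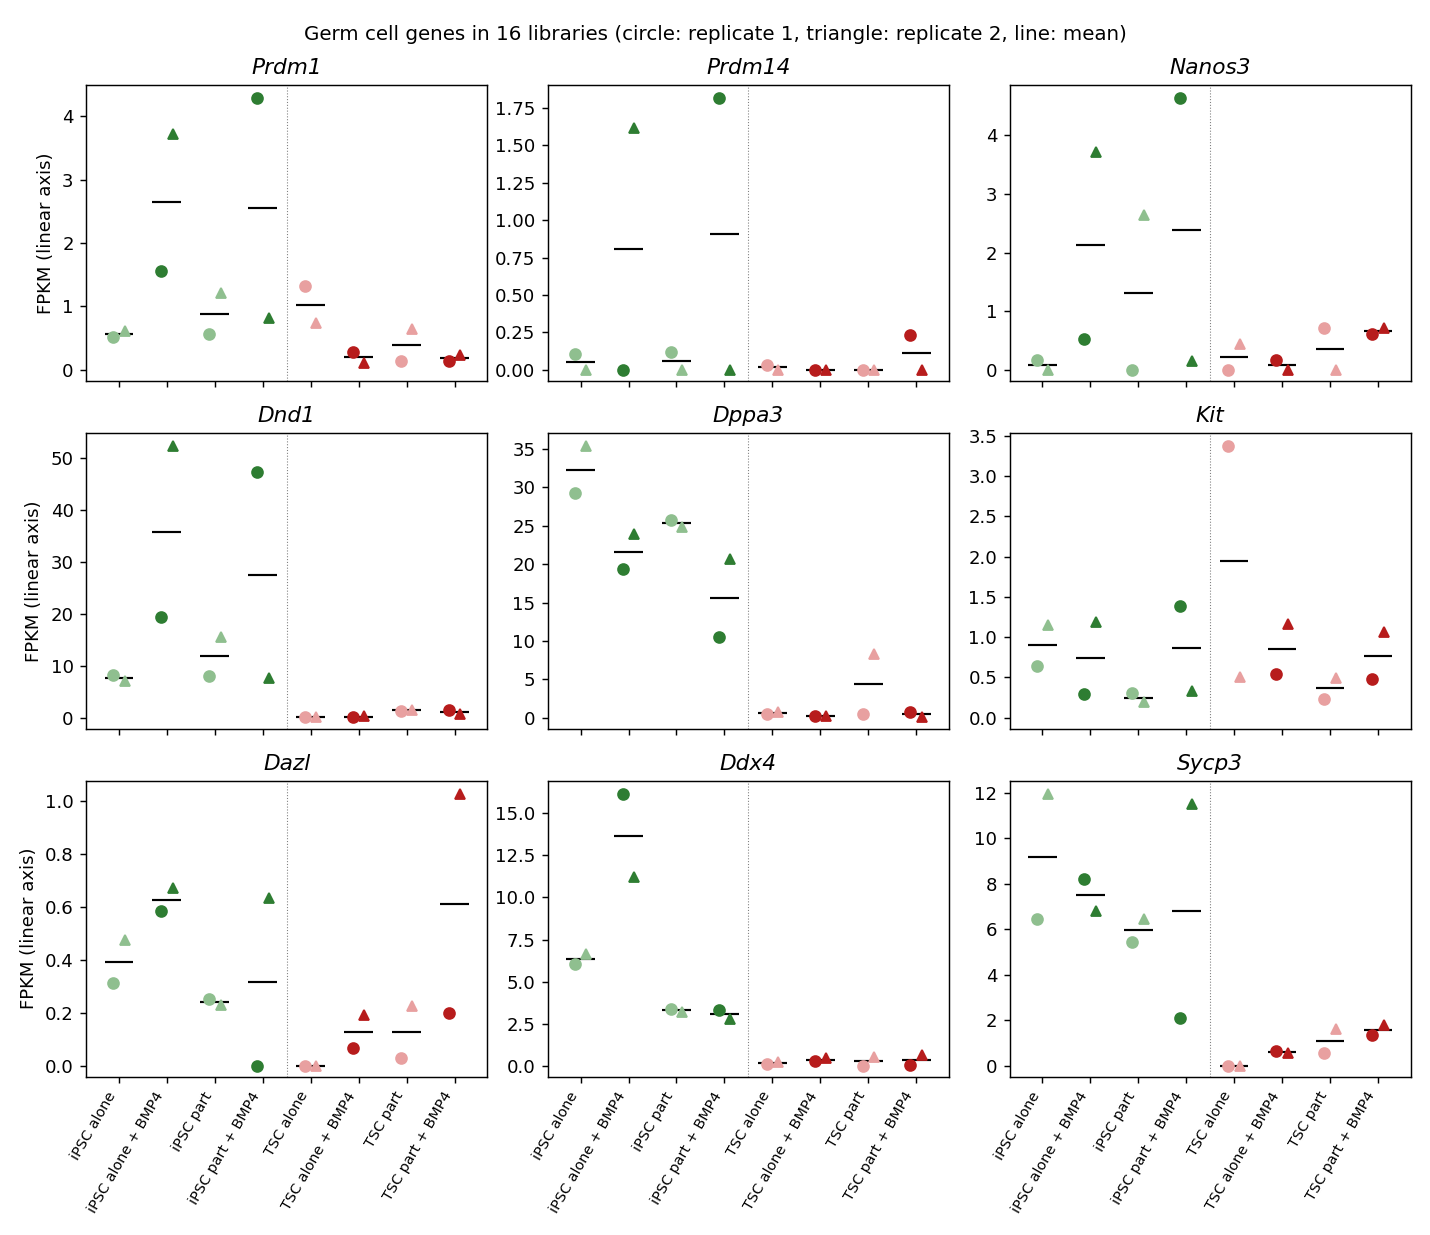
FPKM of the 9 genes in each of the 16 libraries on linear axes that differ between genes, 1 panel per gene, with a circle for replicate 1, a triangle for replicate 2 and a line at their mean in each of the 8 groups. The 4 genes Dnd1, Dppa3, Ddx4 and Sycp3 lie higher in all 8 libraries of iPSC origin than in any of TSC origin, and the paired points of the BMP4-treated iPSC groups lie far apart for Dnd1.

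Prdm1, which encodes the transcriptional repressor BLIMP1, measured 0.521 and 0.610 FPKM in iPSC alone and 1.56 and 3.73 FPKM in iPSC alone with BMP4. In the assembled iPSC part it measured 0.561 and 1.21 FPKM without BMP4, and 4.29 and 0.815 FPKM with it. Both treated libraries of iPSC alone therefore lay above both untreated ones, whereas the treated libraries of the assembled part lay on either side of 1 untreated library. In the 8 libraries of TSC origin Prdm1 ranged from 0.114 to 1.33 FPKM with a median of 0.255 FPKM, and its highest value there was in TSC alone.

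Prdm14, a regulator active in germ cells and naive pluripotent cells, was listed at 0 in 10 of the 16 libraries. It reached 1.62 FPKM in replicate 2 of iPSC alone with BMP4 and 1.81 FPKM in the first BMP4-treated library of the assembled iPSC part. The other replicate of each of these groups was at 0, and no other library exceeded 0.230 FPKM. A mean for either treated group would therefore describe neither of its libraries.

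Nanos3 measured 0.161 and 0 FPKM in iPSC alone, and 0.521 and 3.72 FPKM after BMP4. In the assembled iPSC part it measured 0 and 2.63 FPKM, and 4.63 and 0.145 FPKM after BMP4. An untreated library of the assembled part thus exceeded 1 of the 2 treated libraries in both iPSC settings. In the libraries of TSC origin Nanos3 did not exceed 0.717 FPKM, with a median of 0.305 FPKM.

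Dnd1, whose protein shields target messages from microRNAs and works with NANOS proteins, measured 8.30 and 7.07 FPKM in iPSC alone and 19.4 and 52.3 FPKM in iPSC alone with BMP4. The assembled iPSC part gave 8.05 and 15.6 FPKM without BMP4, and 47.4 and 7.61 FPKM with it. Its 2 highest libraries were the same as for Prdm1, Prdm14 and Nanos3, and the library at 7.61 FPKM lay within the range of the 4 untreated libraries of iPSC origin. In the libraries of TSC origin it ranged from 0.0649 to 1.59 FPKM, with 0.801 to 1.59 FPKM in the 4 libraries of the assembled TSC part and 0.0649 to 0.361 FPKM in the 4 of TSC alone. That difference between low values was not tested, and the share of all genes separated in this way was not counted. In the GENCODE vM21 annotation of GRCm38, Dnd1 shares 140 bases with Wdr55 on the opposite strand, and since the strandedness of the quantification is not stated, reads from that stretch cannot be assigned to 1 of the 2 genes. Wdr55 measured 56.0 and 54.8 FPKM in iPSC alone with BMP4, and 25.8 and 24.2 FPKM in the assembled iPSC part with BMP4, so its replicates did not share the spread of Dnd1.

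Dppa3, which protects the maternal genome from demethylation in the zygote and is kept in naive pluripotent and germ cells, had its lowest values in cells of iPSC origin after BMP4. It measured 29.2 and 35.3 FPKM in iPSC alone, 19.3 and 23.9 FPKM in iPSC alone with BMP4, 25.8 and 24.8 FPKM in the iPSC part of assembled structures, and 10.5 and 20.7 FPKM in that part with BMP4. All 4 treated libraries lay below all 4 untreated ones, with the lowest value in the library where Prdm1, Prdm14 and Nanos3 were highest. In the libraries of TSC origin 7 of 8 values were below 1 FPKM, and the exception was 8.26 FPKM in replicate 2 of the untreated assembled TSC part. The same library held 13.2 FPKM of Pou5f1 and 4.51 FPKM of Nanog, regulators of pluripotency, against at most 2.33 and 1.58 FPKM in the other 7 libraries of TSC origin. The part of iPSC transcripts in that value was not tested.

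Kit, the receptor for the survival factor encoded by Kitl, stayed between 0.194 and 1.39 FPKM in the libraries of iPSC origin. Its highest value was 3.38 FPKM in 1 library of TSC alone, whose pair measured 0.510 FPKM. Kitl was also highest in that library, at 4.96 FPKM, and did not exceed 1.81 FPKM in any library of iPSC origin. No neighbours in the order of the 8 group means of Kit were separated, since the libraries of each overlapped those of the group above it.

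Ddx4, which encodes the RNA helicase VASA of germ granules, measured 6.05 and 6.67 FPKM in iPSC alone and 16.1 and 11.2 FPKM in iPSC alone with BMP4. It measured 3.39 and 3.21 FPKM in the iPSC part of assembled structures, and 3.33 and 2.80 FPKM in that part with BMP4. Its pairs lay close together, so the order was treated iPSC alone, then untreated iPSC alone, then the 2 assembled groups, which overlapped each other. In the libraries of TSC origin Ddx4 ranged from 0 to 0.635 FPKM.

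Sycp3, a component of the axis of meiotic chromosomes, measured 6.46 and 11.9 FPKM in iPSC alone and 8.22 and 6.83 FPKM in iPSC alone with BMP4. The assembled iPSC part gave 5.46 and 6.45 FPKM, and 2.12 and 11.5 FPKM with BMP4, so the range of its treated pair spanned nearly the whole range of the lineage. Its 4 iPSC groups overlapped in order of their means. In the libraries of TSC origin it was listed at 0 in both libraries of TSC alone and reached 1.80 FPKM in the assembled TSC part with BMP4. Sycp3 lies on the opposite strand within the span of Chpt1, which ranged from 0.328 to 4.63 FPKM over the 16 libraries with no separation between the lineages. Dazl, an RNA-binding protein that licenses germ cells for sexual development, ranged from 0 to 0.671 FPKM in the libraries of iPSC origin and from 0 to 1.02 FPKM in those of TSC origin.

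Promoter sequences are shown for these late genes because Ddx4 and Sycp3 share a lineage pattern that Dazl does not. They are the RefSeq sequences of GRCm38.p6, from 250 bases before to 50 bases after the start site, 5′ to 3′ on the gene's strand. RefSeq entries matched 6 of the 9 genes, the other three being Prdm14, Dnd1 and Dppa3. Capitals mark the E-box CACGTG, a motif of MYC-type and related helix-loop-helix factors, chosen for display after these values had been seen.
Ddx4, chr13:112652261-112652560, minus strand: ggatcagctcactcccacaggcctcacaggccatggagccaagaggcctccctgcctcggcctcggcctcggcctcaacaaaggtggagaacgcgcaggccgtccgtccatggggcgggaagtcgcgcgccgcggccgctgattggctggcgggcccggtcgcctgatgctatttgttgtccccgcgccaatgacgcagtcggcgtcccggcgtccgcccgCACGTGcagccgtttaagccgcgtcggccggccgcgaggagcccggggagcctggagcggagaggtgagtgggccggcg
Sycp3, chr10:88459337-88459636, plus strand: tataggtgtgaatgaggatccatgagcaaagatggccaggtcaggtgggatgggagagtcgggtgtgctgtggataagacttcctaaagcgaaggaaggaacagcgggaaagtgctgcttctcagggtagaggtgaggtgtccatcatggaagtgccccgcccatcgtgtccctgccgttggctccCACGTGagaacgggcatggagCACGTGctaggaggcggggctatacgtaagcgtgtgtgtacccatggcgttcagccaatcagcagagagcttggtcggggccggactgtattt
Dazl, chr17:50293571-50293870, minus strand: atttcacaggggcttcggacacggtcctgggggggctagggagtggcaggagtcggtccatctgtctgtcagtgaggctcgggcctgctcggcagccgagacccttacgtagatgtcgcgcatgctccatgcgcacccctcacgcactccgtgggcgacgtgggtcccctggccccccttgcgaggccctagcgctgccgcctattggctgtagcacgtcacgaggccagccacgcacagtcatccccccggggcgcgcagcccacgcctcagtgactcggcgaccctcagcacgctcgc
The motif CACGTG was found 29 bases before the start of Ddx4 and at 64 and 43 bases before that of Sycp3, and it was not found in the windows of Dazl, Kit, Prdm1 or Nanos3. Of all 32851 RefSeq promoters of this length, 7.15% held it on either strand. Matches to the other motifs searched on both strands were TCCCGC (in 20% of promoters) in Kit, Sycp3 and Ddx4, AGGTGT (13.7%) in Nanos3 and Sycp3, CCTTTGTT (1.56%) in Ddx4 and TCACACC (3.98%) in Sycp3, where it overlaps an AGGTGT match. GGCGCC (11.9%) was found in none of them. The 3 windows were rich in CG dinucleotides, with 38 in Ddx4, 28 in Dazl and 15 in Sycp3 against a median of 7 over all promoters. This was not particular to them, since Kit held 20 and 21 in its 2 entries and Prdm1 held 20, whereas Nanos3 held 3. These matches describe letters in a window and are not measurements of binding or methylation.

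The libraries of the 2 lineages were compared first, as 8 libraries of TSC origin against 8 of iPSC origin, with limma on log2(FPKM + 1) and p-values adjusted over the 13406 genes tested. Of the 8 tested genes, 5 were lower in cells of TSC origin and none was higher, where 24% of all genes were lower, 24.8% were higher and 48.8% differed in either direction. Dppa3 fell by 3.73 ± 0.31 on the log2 scale (standard error, limma adjusted p = 1.33e-06) and Dnd1 fell by 3.33 ± 0.32 (adjusted p = 4.39e-06). Ddx4 fell by 2.38 ± 0.15 (adjusted p = 2.43e-07), Sycp3 fell by 2.19 ± 0.26 (adjusted p = 1.99e-05) and Prdm1 fell by 0.75 ± 0.22 (adjusted p = 0.0138). The 8 and 8 libraries did not overlap for Dppa3, Dnd1, Ddx4 and Sycp3, a separation in that direction found in 5.17% of all genes. They did overlap for Prdm1. Without BMP4 its mean was 0.725 FPKM in the libraries of iPSC origin and 0.708 FPKM in those of TSC origin. With BMP4 these means were 2.60 and 0.192 FPKM, so the lineage difference of Prdm1 lay in the treated libraries. The median difference over the 8 genes was -1.47, against -0.01 over all genes. Ddx4 passed the filter only through libraries of iPSC origin, so its p-value is not read as support for a lineage difference. The counts of 5 and of 4 above include it. Its values were at least 2.80 FPKM in all 8 of those libraries and at most 0.635 FPKM in the TSC lineage.

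The other three did not pass. The difference was -0.58 ± 0.36 for Nanos3 (limma adjusted p = 0.206), -0.35 ± 0.23 for Prdm14 (adjusted p = 0.213) and 0.16 ± 0.23 for Kit (adjusted p = 0.582). The values of Nanos3 and Prdm14 moved with single libraries. Leaving out the second BMP4-treated library of the assembled iPSC part gave -0.86 for Nanos3 and -0.54 for Prdm14, and leaving out the first gave -0.29 and -0.17. Prdm14 stood at -0.53 without replicate 1 of iPSC alone with BMP4, a library where it was at 0. Since both genes entered the tests only through high libraries of iPSC origin, no lineage difference is read from these values of Nanos3 and Prdm14. In these bulk libraries, fewer cells of a type and less RNA per cell cannot be told apart. Each lineage also has its own line and its own fluorescent marker, which cannot be told apart from it either.

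**Figure D2:**
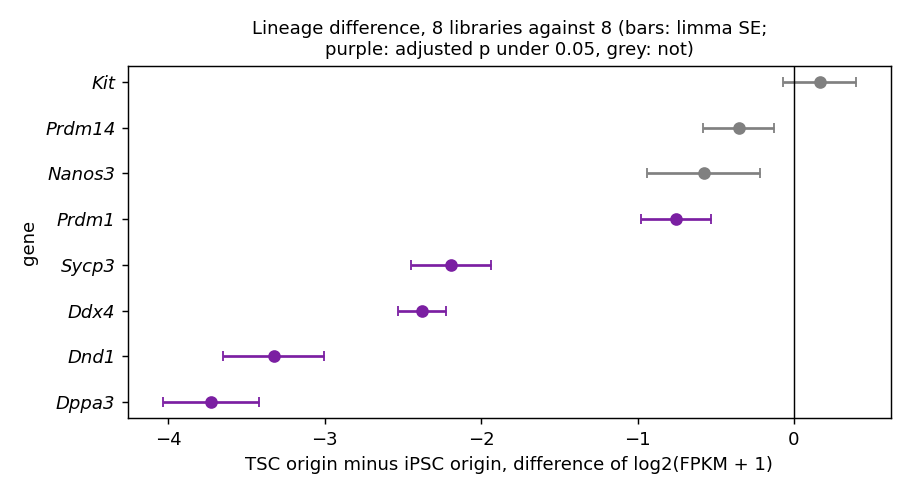
Difference of TSC origin minus iPSC origin on the log2(FPKM + 1) scale for the 8 tested genes, with limma standard errors and 8 libraries on each side; purple marks an adjusted p under 0.05. The differences run from -3.73 for Dppa3 to 0.16 for Kit, and 5 of the 8 passed.

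BMP4 is the signal that starts germ cell specification in the embryo, so its effect on these genes in iPSC was the main comparison. Over the 4 treated and 4 untreated libraries of iPSC origin, 0 of the 8 genes passed at an adjusted p under 0.05, against 0.186% of all genes. At an unadjusted p under 0.05 there were 2 of 8, against 10.5% of all genes. These were Dnd1, with a log2 difference of 1.33 ± 0.46 (limma adjusted p = 0.316), and Prdm1, with 0.95 ± 0.32 (adjusted p = 0.301). The median log2 difference of the 8 genes was 0.55, against 0.06 for all genes.

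For the remaining genes the log2 differences were 0.86 ± 0.51 for Nanos3 (limma adjusted p = 0.621), 0.64 ± 0.32 for Prdm14 (adjusted p = 0.516) and 0.45 ± 0.22 for Ddx4 (adjusted p = 0.508). Prdm14 entered the tests only through 2 treated libraries, so no BMP4 effect is read from its value. Dppa3 differed by -0.65 ± 0.44 (adjusted p = 0.675), Kit by 0.18 ± 0.33 and Sycp3 by -0.18 ± 0.36. No gene of the 8 had all 4 treated libraries above all 4 untreated ones, a separation found in 1.75% of all genes. Dppa3 had all 4 treated libraries below, found in 1.58% of all genes.

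The size of these differences depended on single libraries. Leaving out the second BMP4-treated library of the assembled iPSC part gave 1.96 for Dnd1, 1.33 for Prdm1, 1.44 for Nanos3 and 1.02 for Prdm14. Leaving out its pair, replicate 1, gave 0.71 for Dnd1, 0.56 for Prdm1, 0.29 for Nanos3 and 0.27 for Prdm14. These fits leave 1 library in that group. Its widely spaced pair then adds nothing to the estimated spread, so no call is read from them.

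**Figure D3:**
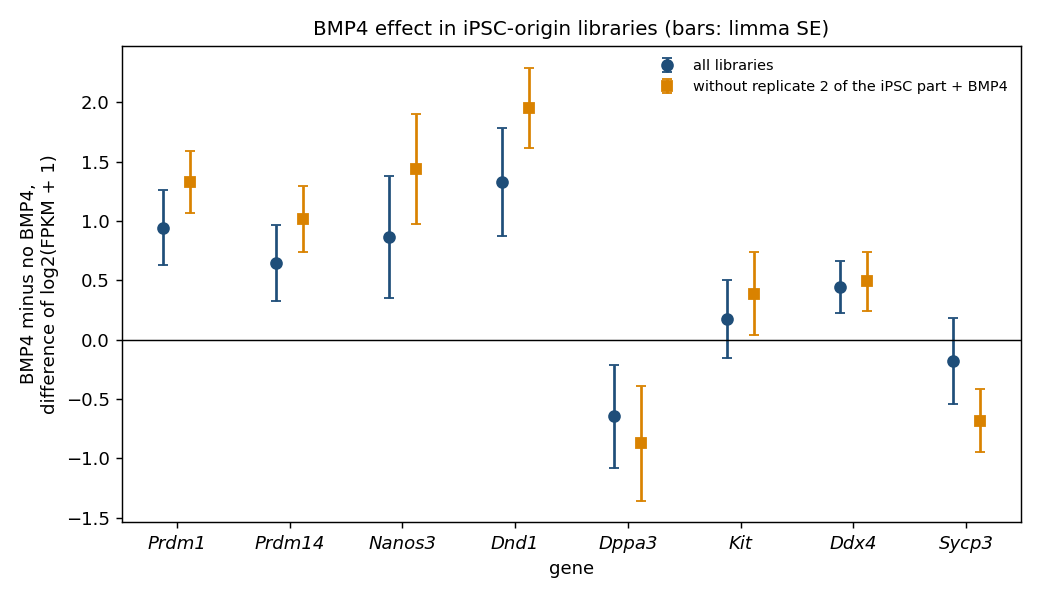
BMP4 minus no BMP4 on the log2(FPKM + 1) scale over the libraries of iPSC origin for the 8 tested genes, with limma standard errors; circles use all 8 libraries and squares leave out replicate 2 of the assembled BMP4-treated iPSC part. Dnd1 moves from 1.33 to 1.96 and Prdm1 from 0.95 to 1.33 between the 2 fits. The squares rest on 1 treated library of the assembled part, so no call is read from them.

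The second BMP4-treated library of the assembled iPSC part held high levels of some trophoblast transcripts. Elf5, a trophoblast regulator, measured 50.4 FPKM in it and at most 0.413 FPKM in the other 7 libraries of iPSC origin, and Hand1 measured 149 FPKM against at most 16.8 FPKM. The summed level of 12 trophoblast markers was nevertheless alike in the 2 libraries of that group, at 546 FPKM in replicate 1 and 602 FPKM in replicate 2. Of the 12, Krt8, Gata3, Tfap2c, Cdx2, Plac1 and Dlx3 were higher in replicate 1, with Krt8, a keratin, at 324 and 107 FPKM. Elf5, Hand1, Krt18, Eomes, Ascl2 and Esx1 were higher in replicate 2. Trophoblast sums ranged from 126 to 190 FPKM in iPSC alone, 327 to 822 FPKM in iPSC alone with BMP4 and 190 to 278 FPKM in the untreated assembled iPSC part, and from 527 to 7128 FPKM in the TSC groups. None of the 12 was at 0 in both libraries of any group. The part of such transcripts in the differences of the germ cell genes was not tested. Endoderm markers summed to at most 7.97 FPKM and blood and endothelial markers to at most 17.4 FPKM in any library of iPSC origin.

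In iPSC alone, 0 of 8 genes passed after BMP4, against 0.0597% of all genes, and 3 of 8 had an unadjusted p under 0.05, against 6.28%. These were Ddx4, with a log2 difference of 0.98 ± 0.31 (limma adjusted p = 0.491), Dnd1, with 1.93 ± 0.64 (adjusted p = 0.533), and Prdm1, with 1.15 ± 0.45 (adjusted p = 0.654). Both treated libraries lay above both untreated ones in 4 of 8 genes, these 3 and Nanos3, a separation found in 27.6% of all genes. In the assembled iPSC part, 0 of 8 passed, against 0.00746% of all genes, and 0 of 8 had an unadjusted p under 0.05, against 7.82%.

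The difference between these 2 effects was tested as an interaction. No gene of the 8 passed, against 0.0224% of all genes, and only Ddx4 had an unadjusted p under 0.05, against 4% of all genes (-1.06 ± 0.44, limma adjusted p = 1). The BMP4 effects on Dnd1, Prdm1, Nanos3 and Prdm14 in the 2 settings were therefore not shown to differ, with interaction values of -1.19 ± 0.91, -0.41 ± 0.63, -0.90 ± 1.03 and 0.04 ± 0.64. Each of these rests on single libraries of the treated assembled part. Leaving out its first or its second library gave -2.44 or 0.06 for Dnd1, -1.18 or 0.36 for Prdm1, -2.05 or 0.25 for Nanos3 and -0.70 or 0.79 for Prdm14, so the sign turned with the library left out, and none of these passed (limma).

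In TSC alone, 0 of 8 genes passed after BMP4, against 12.1% of all genes, a share at which 0 of 8 is ordinary. Without BMP4 the means there were 0.0807 FPKM for Dnd1, 0.607 FPKM for Dppa3, 0.169 FPKM for Ddx4 and 0 for Sycp3. At such levels a fall could hardly be called. Prdm1 and Kit had means of 1.03 and 1.95 FPKM. In the assembled TSC part 0 of 8 passed, against 0.5% of all genes. Dppa3 had the largest value there, at -1.40 ± 0.62 (limma adjusted p = 0.534), and it rests on the library with 8.26 FPKM described above. Without the other untreated library of that group, which leaves the 8.26 FPKM library alone on its side with a spread assumed to be that of the other groups, the difference was -2.72 ± 0.41 (adjusted p = 0.0318).

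The BMP4 effect in cells of iPSC origin was also set against that in cells of TSC origin. None of the 8 passed, against 2.69% of all genes. Prdm1 came nearest, with a difference of effects of 1.42 ± 0.45 (limma adjusted p = 0.104), and Dnd1 stood at 1.33 ± 0.64 (adjusted p = 0.284). In iPSC alone and the assembled iPSC part the log2 differences of Prdm1 were 1.15 and 0.74, whereas in TSC alone and the assembled TSC part they were -0.75 and -0.20. The assembled iPSC value of Prdm1 was -0.03 without the first treated library of that part and 1.51 without the second. Leaving out that second library, the difference of effects was 1.81 for Prdm1 and 1.95 for Dnd1. Leaving out the first gave 1.04 for Prdm1 and 0.71 for Dnd1. Each of these fits leaves 1 library in that group, so no call is read from them.

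Assembly with TSC was compared with growth alone in the iPSC. Without BMP4, 0 of 8 genes passed, against 11.8% of all genes, and the lowest adjusted p was that of Ddx4, at -0.78 ± 0.31 (limma adjusted p = 0.120). With BMP4 in both groups, 1 of 8 passed, against 5.72% of all genes in either direction and 4.84% that were lower. Ddx4 fell by 1.83 ± 0.31 on the log2 scale in the assembled part (adjusted p = 0.0180), from 13.7 ± 3.46 FPKM (SD, n = 2) to 3.06 ± 0.38 FPKM (SD, n = 2; limma). The call was lost without either library of iPSC alone with BMP4 (adjusted p = 0.142 and 0.0970) or without replicate 1 of the assembled part (adjusted p = 0.0589), with a pseudocount of 0.1 (adjusted p = 0.153) and in a fit of only these 2 groups (adjusted p = 0.133), and the direction was the same in each. The median over all genes was -0.19 without BMP4 and -0.18 with it, and with quantile normalization, which brings the latter to -0.02, Ddx4 fell by 1.64 ± 0.28 (adjusted p = 0.0184).

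The pattern that Prdm1, Prdm14, Nanos3 and Dnd1 shared was then described, having been noticed in the values above. In all 4, the 2 highest of the 16 libraries were the second BMP4-treated library of iPSC alone and the first BMP4-treated library of the assembled iPSC part. That is 4 of the 8 tested genes, against 2% of all genes, and since the pair of libraries was picked from these genes the share carries no test. Prdm14 reached 1 FPKM in these 2 libraries only, so passing the filter already made it meet this rule. Prdm14, Nanos3 and Dnd1, 3 of 8, were also at least 1 log2 unit apart within both treated pairs in that direction, against 1.06% of all genes. The libraries and the direction were picked from these genes, so this share carries no test either. With its other treated replicates at 0, Prdm14 met this rule too by passing the filter. Among other genes of the pathway, named here after their values were seen, Ifitm1, an interferon-induced surface protein used to mark early germ cells, had its 2 highest values in the same libraries, at 390 and 687 FPKM, with 110 and 67.1 FPKM in their pairs. The same held for 4 of 9 BMP-SMAD targets (Id1, Id3, Id4 and Msx1) and for 4 of 8 primitive streak genes tested (T, Mixl1, Fgf8 and Mesp1). Ifitm1 was the only 1 of 11 tested early germ cell surface and signal genes to do so. It held for 0 of 10 tested partners of specification and 0 of 22 later germ cell and meiosis genes. Genes that are highest in TSC cannot meet this rule, so the 8 libraries of iPSC origin were also ranked alone. There the same 2 libraries were highest for 5 of the 8 tested genes (Kit in addition), 6 of 9 BMP-SMAD targets, 4 of 8 streak genes, 5 of 12 trophoblast markers (Krt8, Gata3, Tfap2c, Cdx2 and Plac1), 0 of 22 later germ cell and meiosis genes and 0 of 8 pluripotency markers, against 5.52% of all genes. It was 1 of 10 tested partners of specification (Tfap2c) and 2 of 11 early germ cell surface and signal genes (Ifitm1 and Kitl). The filter again made Prdm14 meet the rule, and the share among the 8 tested genes again carries no test. Krt8 was also more than 1 log2 unit apart in both treated pairs. The part of trophoblast transcripts in this pattern was not tested.

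Examples show how far apart the pairs were. Mixl1, a homeobox gene of the primitive streak, measured 18.6 and 70.3 FPKM in iPSC alone with BMP4, and 214 and 9.40 FPKM in the assembled iPSC part with BMP4. Msx1, a homeobox gene induced by BMP, measured 23.2 and 60.3 FPKM, and 54.1 and 6.75 FPKM, in the same groups. Bmp4 itself followed in part, at 0.876 and 16.5 FPKM in iPSC alone with BMP4, and at 90.5 and 20.5 FPKM in the BMP4-treated assembled part, against at most 1.55 FPKM in the 4 untreated libraries of iPSC origin. Pairs of libraries differed over the whole table as well. The share of tested genes more than 1 unit of log2(FPKM + 1) apart was 13.2% in the assembled iPSC part with BMP4, 4.86% in iPSC alone with BMP4 and 3.39% in iPSC alone. It was 15.5% in TSC alone, the highest of the groups, and 9.41% in TSC alone with BMP4.

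**Figure D4:**
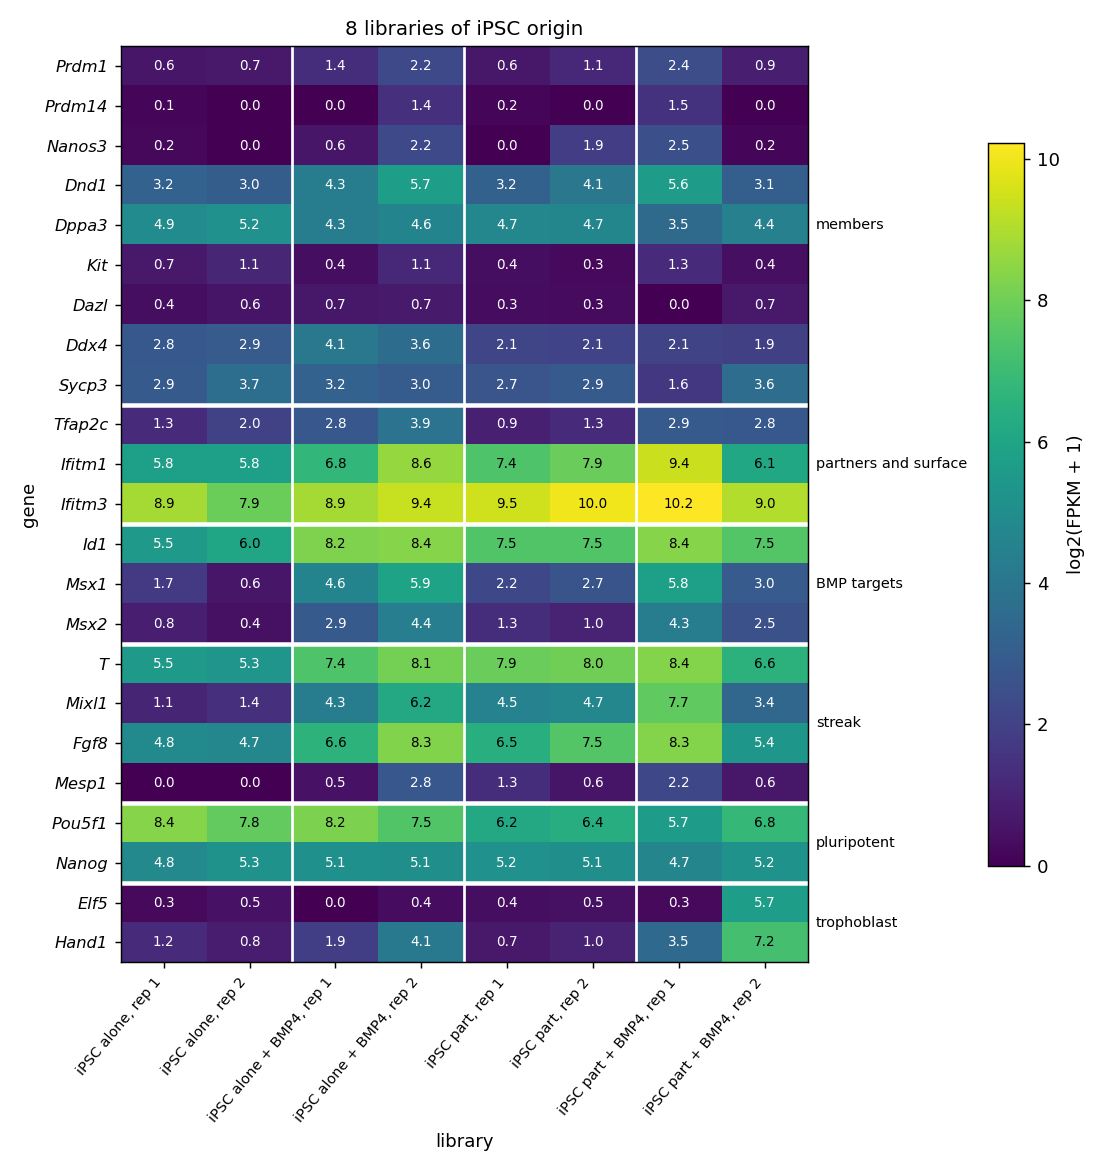
Values of log2(FPKM + 1) in the 8 libraries of iPSC origin for the 9 germ cell genes and for partner, BMP target, primitive streak, pluripotency and trophoblast genes, 1 row per gene and 1 column per library, with colour from 0 (dark) to above 10 (bright). Prdm1, Prdm14, Nanos3, Dnd1, Msx1, Mixl1, Fgf8 and Mesp1 are brightest in the same 2 of the 4 treated libraries. Elf5 stands at 5.7 in 1 library only, and the rows marked trophoblast are Elf5 and Hand1, chosen from 12 markers.

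Other genes of the germ cell pathway were counted from lists that the rule for the 9 genes did not use. Among 10 tested partners of specification, 1 rose with BMP4 in cells of iPSC origin and none fell, where 0.186% of all genes passed in either direction. It was Tfap2c, the AP-2 factor that acts with Prdm1 and Prdm14 but is also a trophoblast regulator, which rose by 1.74 ± 0.27 on the log2 scale (limma adjusted p = 0.0270). Its values were 1.39 and 2.99 FPKM in iPSC alone, 5.90 and 13.8 FPKM with BMP4, 0.842 and 1.42 FPKM in the iPSC part of assembled structures and 6.48 and 6.01 FPKM in that part with BMP4. All 4 treated libraries lay above the 4 untreated ones, and none of them reached the 21.4 to 141 FPKM of the TSC lineage. Among 12 trophoblast markers, a list that also holds Tfap2c, 2 rose, the other being Gata3 (2.07 ± 0.34, adjusted p = 0.0323).

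None of 11 tested early germ cell surface and signal genes and none of 22 tested later germ cell and meiosis genes passed with BMP4 in cells of iPSC origin, at medians of 0.43 and 0.06, and none in either list had an unadjusted p under 0.05. Over all genes 0.186% passed and 10.5% had an unadjusted p under 0.05, so lists of this size with no adjusted call are ordinary. Ifitm3, an early germ cell marker of the same family as Ifitm1, measured 462 and 242 FPKM in iPSC alone and 461 and 664 FPKM with BMP4 (over both settings 0.30 ± 0.49, limma adjusted p = 0.899). Kitl differed by 0.43 ± 0.29 (adjusted p = 0.677). Thus high Ifitm3 was already present without BMP4.

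BMP-SMAD targets and streak genes had no calls, where 0.186% of all genes passed, 10.5% had an unadjusted p under 0.05 and the median was 0.06. In the first list 0 of 9 passed and 7 of 9 had an unadjusted p under 0.05, with a median of 1.27. Id1 and Id2 encode inhibitors of helix-loop-helix factors and are direct readouts of BMP signalling. Id1 measured 44.9 and 65.2 FPKM in iPSC alone and 303 and 332 FPKM with BMP4. In the assembled iPSC part it measured 177 and 174 FPKM without BMP4, and 332 and 177 FPKM with it. Over both settings the limma adjusted p of Id1 was 0.426, and Id2 differed by 1.45 ± 0.29 (adjusted p = 0.0825). In the streak list 0 of 8 passed and 5 of 8 had an unadjusted p under 0.05, with a median of 1.07, and T, the brachyury gene, differed by 0.92 ± 0.60 (adjusted p = 0.651). Among 8 pluripotency markers, Fgf5, which marks the primed epiblast, fell by 2.94 ± 0.33 (adjusted p = 0.00293). No other member of that list passed, and 2 more had an unadjusted p under 0.05, Zfp42 at 1.08 ± 0.29 (adjusted p = 0.197) and Dnmt3b at -0.91 ± 0.33 (adjusted p = 0.343).

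Between the lineages, 3 of 10 partners were higher and 5 lower in cells of TSC origin, where 24.8% of all genes were higher and 24% lower. Tfap2c was higher by 3.41 ± 0.19 (limma adjusted p = 1.06e-07), and Otx2, a repressor of germ cell fate, fell by 2.63 ± 0.24 (adjusted p = 2.9e-06). Of the early surface and signal genes, 2 were higher and 6 lower. Dppa5a fell by 6.28 ± 0.66, Ifitm1 fell by 5.39 ± 0.56, Pdpn fell by 5.17 ± 0.37 and Ifitm3 fell by 4.45 ± 0.35. Of the later germ cell and meiosis genes, 6 were higher and 8 lower, shares not far from those of all genes. Rhox9 (6.42 ± 0.68) and Tex19.1 (3.38 ± 0.39), which are also placental genes, were higher, whereas Mael, of the piRNA pathway, fell by 2.72 ± 0.22 and Syce2, of the synaptonemal complex, fell by 2.11 ± 0.19.

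Calls in these lists were also counted for assembly and for BMP4 in TSC alone. No effect on a list is read from these counts. In the assembled iPSC part without BMP4, 1 of 22 later germ cell and meiosis genes was lower than in iPSC alone. Over all genes 11.8% passed in either direction. The gene was Meioc, a regulator of meiotic messages, which fell by 1.28 ± 0.29 (limma adjusted p = 0.0168). Among the partners 1 of 10 was lower, Otx2, which fell by 1.60 ± 0.48 (adjusted p = 0.0491). With BMP4 in both groups, 2 of 22 were lower, against 4.84% of all genes. These were Meioc, which fell by 1.24 ± 0.29, and Rnf17, a tudor-domain gene of germ granules, which fell by 1.69 ± 0.40 (adjusted p = 0.0338 for each). In TSC alone with BMP4, 1 of 22 later genes was higher and 1 lower, where 12.1% of all genes passed in either direction. Of 11 early surface and signal genes 2 were higher and 1 lower, and of 10 partners 2 were higher and none lower. Rnf17 rose there by 2.16 ± 0.40 (limma adjusted p = 0.00498), whereas Stag3, a meiotic cohesin subunit, fell by 2.11 ± 0.30 (adjusted p = 0.00128). Kitl fell by 1.57 ± 0.42 (adjusted p = 0.0291). Sox2 rose there by 2.52 ± 0.61 (adjusted p = 0.0192) and Esrrb rose by 3.19 ± 0.68 (adjusted p = 0.0105), both shared by pluripotent, germ and trophoblast stem cells.

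The genes whose levels followed each member most closely were taken as the 3 with the highest Pearson correlation of log2(FPKM + 1) over the 16 libraries, among 8353 genes with a mean of at least 5 FPKM in at least 1 group. The 16 points share 2 lineages, so these values are descriptions. For Dnd1 they were Wnt5b (r = 0.968), Fgf8 (0.963) and Gpc3 (0.961), and for Dppa3 they were Lpar4 (0.983), Stmn2 (0.975) and Mcts2 (0.974). For Ddx4 they were Zdbf2 (0.977), Ubr7 (0.969) and Pdf (0.968), and for Sycp3 they were Zfp988 (0.974), Cyct (0.961) and Zfp978 (0.959). The sparser genes had looser neighbours: Arl4d (0.921), Msgn1 (0.917) and Wnt5a (0.914) for Prdm14, Ptgs1 (0.895), Herc1 (0.890) and Fn1 (0.885) for Prdm1, Ptgs1 (0.852), Msgn1 (0.832) and Rspo3 (0.820) for Nanos3, and Ddx6 (0.824), Pard3 (0.813) and Glrx5 (0.802) for Kit.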

How the data were processed

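RNA was measured in 16 mouse Smart-seq2 libraries, 2 in each of 8 groups taken from the labels. The values are FPKM from a single table deposited by the authors. The tools CASAVA and TopHat2 and the builds mm9 and hg19 are listed, without role or version, per the submitters' processing notes. How FPKM were computed, on which annotation and with which strand setting is not given in the sources used here. Whole reads could not be recovered from the low values, so read counts and depth are unknown, and no counting interval or limit for a 0 can be given. FPKM summed to between 666077 and 947859 per library, and 10504 to 11419 entries reached 1 FPKM.

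The filter kept 13406 of 31663 entries, those reaching 1 FPKM in 2 or more libraries. A linear model with 8 group means (8 residual degrees of freedom) was fitted to log2(FPKM + 1) in limma 3.58.1 (R 4.3.3), with moderated variances that follow the mean level. A fold change on this scale understates that of low genes. Tests were two-sided, with Benjamini-Hochberg adjustment over all tested genes in each of 10 comparisons and a threshold of 0.05. The comparisons share libraries: those of BMP4 in the iPSC settings share their controls with the comparisons of assembly. The fit was tested on simulated data. Promoter sequences and motifs were read with Python 3.11.15.

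The 9 genes and the gene lists were chosen with earlier results of these data known. All 9 genes are named, with 9 further genes named whatever their result, up to 4 genes per list past the threshold with the largest change, and 3 genes per member by likeness; other genes were named after their values were seen. The cell types named on the labels were compared with their markers: Pou5f1 was at 49.5 to 326 FPKM in the libraries of iPSC origin, whereas in TSC alone Cdx2 was at 0 and 3.89 FPKM, Eomes at 0.219 and 0.0844 FPKM and Elf5 at 5.51 and 11.6 FPKM. Alternatives covered the pseudocount, filter, scaling, library weights, the samples fitted, a replicate block and leaving out libraries.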

Additional observations from a re-analysis of the deposited data

How the results depend on the processing

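No result reversed direction, counted where the main or the alternative value was called. For single genes, 1174 alternative values kept their side of the threshold, 13 newly passed it and 5 no longer did. For the counts of the 8 tested genes called, 12 alternatives moved the count by more than 1.5 times, and 2 more changed it by less. Leaving out 1 library at a time gave 5 to 7 genes for the lineages, 0 to 2 genes for BMP4 in cells of iPSC origin and for its difference from TSC origin, and 0 to 1 for BMP4 in the assembled TSC part and for assembled against lone iPSC with BMP4. Some libraries held transcripts of the other lineage. From these, 2 were also left out together, the second BMP4-treated assembled iPSC library and the second untreated assembled TSC library. The log2 differences with BMP4 in cells of iPSC origin were then 1.96 for Dnd1 and 1.33 for Prdm1, and the difference of effects between the lineages was 1.67 for Prdm1. Fits that leave out libraries hold 1 library in a group, and its pair no longer adds to the spread, so no new call is read from them. A pseudocount of 0.1 gave 1 for BMP4 in TSC alone (Sycp3, adjusted p = 0.0211) and 0 for assembled against lone iPSC with BMP4, where a fit of only the 2 groups also gave 0. Library quality weights gave 1 for assembled against lone iPSC without BMP4 (Ddx4, adjusted p = 0.0315).

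Counts over all genes moved more. For BMP4 in cells of iPSC origin 25 genes became 79 with no filter, 74 with library weights, 4 in a fit of only these groups, 137 without the 2 libraries above and 4 to 154 over the libraries left out. For iPSC alone 8 became 79 with no filter, 132 with weights, 3 with a pseudocount of 0.1, 3 in its own fit and 3 to 5 without 1 of 3 libraries. For the assembled iPSC part 1 became 11 with no filter, 2 with a pseudocount of 0.1, 3 with quantile normalization, 28 without the 2 libraries and up to 44 without 1. For the interaction 3 became 13 with no filter, 6 with weights, 5 with a pseudocount of 0.1, 8 without the 2 libraries and up to 12 without 1. For TSC alone 1625 became 3 in its own fit, 428 with weights and 569 without 1 library, and for the assembled TSC part 67 became 0 in its own fit, 28 with a pseudocount of 0.1, 27 without the 2 libraries and 9 to 128 without 1. For assembled against lone iPSC 1585 became 3985 with weights and 6 to 739 without 1 library, and with BMP4 in both 767 became 2 in its own fit, 424 with quantile normalization, 314 with upper quartile rescaling and 5 to 47 without 1 of 3 libraries. The difference of BMP4 effects between lineages had 360 genes, and 124 to 548 without 1 library.

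The replicate numbers were not shown to pair the samples: over 28 pairs of groups the correlation of same-numbered deviations ran from -0.18 to 0.12, with a median of -0.02. With a replicate block the counts among the 8 genes stayed as they were (5 for the lineages, 1 for assembled against lone iPSC with BMP4, 0 otherwise), while 14 of all genes rather than 25 passed for BMP4 in cells of iPSC origin. A crossed pairing, chosen after seeing the data, gave 1 of the 8 and 698 of all genes for assembled against lone iPSC with BMP4, and 0 and 1 for BMP4 in the assembled iPSC part.

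Each group had 2 libraries of unknown depth, so the precision of values under 1 FPKM, common for Prdm14, Kit and Dazl, is not known. A fit of only the groups compared was not made for the 2 comparisons that use all 8 groups.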
